A study of Homo sapiens with 9 samples.

Results

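RAB25 and 9 other genes of apical recycling and polarized membrane trafficking were examined in OVCA433, an established human line of ovarian serous adenocarcinoma cells. The genes were chosen by name: the GTPases RAB25 and RAB11A, the RAB11 effectors RAB11FIP1 and RAB11FIP4, the motors MYO5B and MYO5C, the RAB27 effectors SYTL1 and SYTL2, the adaptor subunit AP1M2 and the transcytosis protein MAL2. They are 10 of the 58676 genes in the count table, and all 10 were among the 15975 genes abundant enough to be tested. RAB25 was chosen because its RNA was lost in knockdown, so the differences of these 10 genes from control are described here without a test.

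The study knocked down MPZL3, a predicted cell adhesion molecule, with lentiviral short hairpin RNA (shRNA) and sequenced poly(A) RNA. All 9 libraries came from the same wild-type line in the same serum-supplemented medium, and all cells carried a lentiviral vector. The groups were 3 libraries with a control vector, 3 with hairpin #1 against MPZL3 and 3 with hairpin #3, each marked A, B and C and called biological replicates by the study. The 6 hairpin libraries together form the knockdown arm. The control of this line is called an empty vector in one part of the study and a scrambled hairpin in another, every group is a transduced population of 1 cell line, and the time between transduction and harvest was not given in the sources used here.

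Epithelial cells keep different proteins on their apical and basolateral surfaces, and small GTPases of the RAB11 subfamily direct the recycling endosome that returns internalised proteins to the surface. RAB11A is made in most cells, whereas RAB25 is largely restricted to epithelia and has been studied in ovarian cancer for its role in integrin recycling. GTP-bound RAB11 proteins recruit RAB11 family interacting proteins (RAB11FIPs) and class V myosins, which couple the vesicle to actin. AP1M2 is the medium chain of the epithelial AP-1B adaptor, which sorts cargo to the basolateral surface, and MAL2 is a tetraspan membrane protein needed for transcytosis to the apical surface.

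The libraries held 16850854 to 23890191 counts. Levels are given as CPM, read counts scaled to the library size with TMM factors. Levels of different genes are compared as RPKM, which is CPM divided by the annotated gene length in kilobases. That length was not checked against the transcripts made in these cells, so shares and sums over different genes depend on it. MPZL3, the targeted gene, was at 15.6, 21.9 and 21.0 CPM in the control libraries, at 1.87, 1.98 and 1.80 CPM with hairpin #1 and at 1.94, 0.988 and 1.80 CPM with hairpin #3, so its levels went with the labels. The summed level of 8 markers of serous ovarian epithelium was 10200 to 12300 CPM in control and 5160 to 6670 CPM in knockdown libraries. The keratin KRT7 was at 2620 to 4230 CPM in control and 1810 to 3300 CPM in knockdown. In the same order KRT8 was at 4640 to 5090 and 1880 to 2280 CPM, and KRT18 at 2100 to 2270 and 686 to 885 CPM. PAX8 was higher in knockdown, at 189 to 230 CPM beside 82.3 to 115 CPM in control. WT1 had no count in any library, and MUC16, at 2.09 to 4.11 CPM in control, had none in knockdown. CDH1 was at 270 to 281 CPM in control and at most 0.353 CPM in knockdown, and EPCAM was at 376 to 420 CPM and 4.68 to 9.94 CPM. The sum of 5 mesenchymal markers was 1840 to 2270 CPM in control and 6760 to 15400 CPM in knockdown. The sum of 4 leukocyte markers was at most 0.935 CPM in any library, with at most 2 counts of CD3E and 1 of CD68. The sum of 4 endothelial markers was 0.547 to 1.02 CPM in control and 4.16 to 7.50 CPM in knockdown, where PECAM1 had at most 4 counts and CDH5 reached 5.16 CPM. The part of these shifts in the trafficking genes was not tested. In bulk RNA, fewer cells that express a gene and less RNA per cell cannot be told apart.

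The promoters of 4 genes are shown because their genes span the range of the differences: RAB25, at or below 3 counts in every knockdown library, MYO5B and AP1M2, with intermediate levels, and RAB11A, whose level differed least from control. Each runs from 250 bases before to 50 bases after the RefSeq gene start on GRCh38.p14, at chr1:156060910-156061209 (plus strand) for RAB25, chr18:50195098-50195397 (minus strand) for MYO5B, chr19:10587263-10587562 (minus strand) for AP1M2 and chr15:65869241-65869540 (plus strand) for RAB11A. They are written 5′ to 3′ on the gene's strand, with capitals marking CACCTG or its reverse complement CAGGTG, the E-box core that SNAI and ZEB repressors are known to bind.
RAB25: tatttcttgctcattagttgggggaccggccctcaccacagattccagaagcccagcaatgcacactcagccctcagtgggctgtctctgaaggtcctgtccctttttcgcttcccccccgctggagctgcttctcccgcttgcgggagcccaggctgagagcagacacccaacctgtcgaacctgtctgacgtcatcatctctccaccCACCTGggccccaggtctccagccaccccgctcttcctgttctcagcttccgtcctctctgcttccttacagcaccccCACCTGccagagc
MYO5B: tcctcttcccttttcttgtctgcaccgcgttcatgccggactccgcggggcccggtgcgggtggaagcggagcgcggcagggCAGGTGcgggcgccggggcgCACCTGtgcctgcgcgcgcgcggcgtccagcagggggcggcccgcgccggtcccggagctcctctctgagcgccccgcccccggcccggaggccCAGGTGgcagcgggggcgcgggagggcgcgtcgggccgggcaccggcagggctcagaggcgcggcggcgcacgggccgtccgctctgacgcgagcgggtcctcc
AP1M2: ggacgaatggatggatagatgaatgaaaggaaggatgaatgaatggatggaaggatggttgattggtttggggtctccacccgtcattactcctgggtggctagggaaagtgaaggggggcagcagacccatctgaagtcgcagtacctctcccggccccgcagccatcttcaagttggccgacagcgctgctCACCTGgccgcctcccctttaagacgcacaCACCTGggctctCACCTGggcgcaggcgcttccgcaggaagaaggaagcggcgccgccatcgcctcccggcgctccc
RAB11A: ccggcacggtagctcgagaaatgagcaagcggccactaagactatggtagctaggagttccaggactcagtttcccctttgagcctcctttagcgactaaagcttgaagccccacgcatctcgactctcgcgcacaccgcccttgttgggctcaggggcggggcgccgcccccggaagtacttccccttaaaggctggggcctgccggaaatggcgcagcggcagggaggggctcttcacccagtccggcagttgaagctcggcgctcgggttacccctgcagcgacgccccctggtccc
The RAB25 window held 2 copies, that of MYO5B 3, that of AP1M2 3 and that of RAB11A 0. Of the other members in the RefSeq promoter table, MYO5C had 1 copy and SYTL1 had 0, so 4 of 6 windows held the letters. RAB11FIP1, RAB11FIP4, SYTL2 and MAL2 had no entry in that table. The same letters on either strand were in 20.6% of 35116 RefSeq promoter windows of this length, and 0.635% held 3 or more copies. The grainyhead motif AACCGGTT, which is its own reverse complement, was in none of the 6 windows and in 0.134% of all windows. These matches are letters in a window and not measured binding sites.

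All 10 genes had lower mean levels in knockdown than in control, with each hairpin. The differences ran from RAB11A, at 83.0% of control with hairpin #1 and 75.0% with hairpin #3, to RAB25, which was at least 726.9-fold lower. In the pooled comparison of 6 knockdown with 3 control libraries, 6 of the 10 passed the call of an adjusted p-value under 0.05 and an at least 2-fold change, all in the lower direction, beside 7.4% of all tested genes called lower and 14.7% called in either direction. These 6 were RAB25, RAB11FIP4, MYO5B, SYTL1, AP1M2 and MAL2. With hairpin #1 alone 7 were called, beside 8.55% of tested genes called lower, and with hairpin #3 alone 6, beside 7.83%. Because the genes were chosen with this contrast known, nothing is read from these counts. The median fitted log2 fold change of the 10 genes was -1.60 pooled, -1.64 with hairpin #1 and -1.77 with hairpin #3, and each median was the same with RAB25 at its bound. Over all tested genes the 3 medians were 0.0045, 0.0009 and -0.0029. For 8 of the 10 genes every knockdown library was below every control library, a pattern that 17.6% of all tested genes shared. SYTL1 and SYTL2 were the exceptions.

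**Figure D1:**
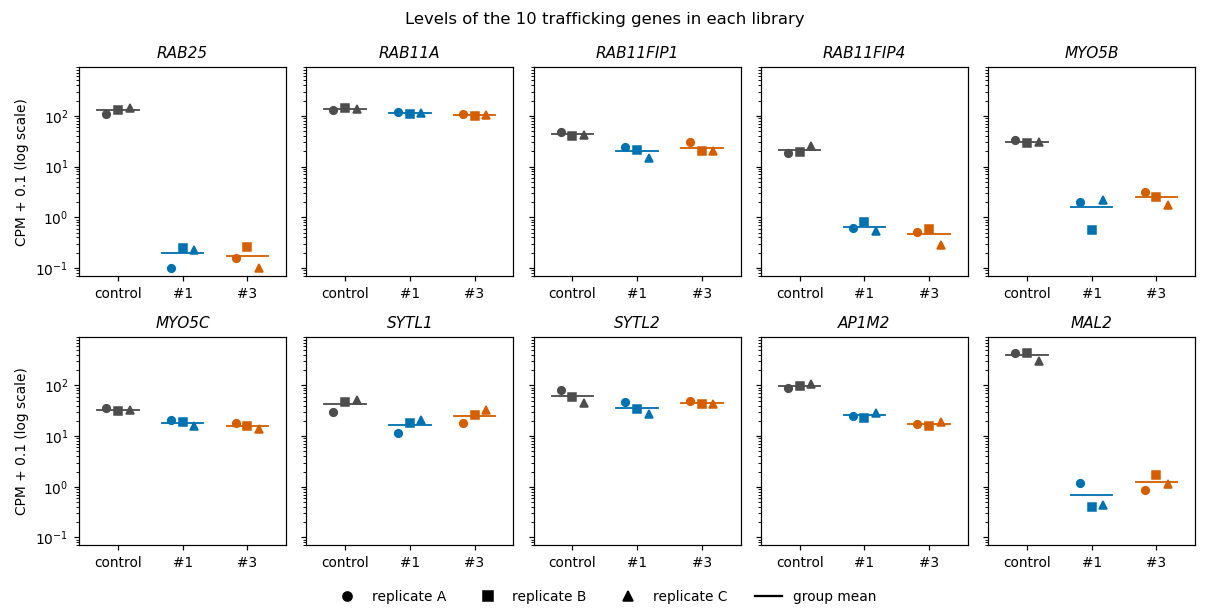
CPM plus 0.1 on a log axis for each of the 10 genes in the 3 control libraries (grey), 3 hairpin #1 libraries (blue) and 3 hairpin #3 libraries (orange), with a symbol for each replicate letter and a line at the group mean. RAB25 and MAL2 lie near the bottom of the axis in all 6 knockdown libraries, and the SYTL1 and SYTL2 groups overlap.

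RAB25 (ENSG00000132698, hg38 chr1:156061160-156070514, plus strand) was abundant in control cells and at or near 0 after knockdown. Its counts were 2292, 2597 and 3029 in control libraries A, B and C (111.0, 129.2 and 144.8 CPM). They were 0, 3 and 3 with hairpin #1 and 1, 3 and 0 with hairpin #3. All 6 knockdown libraries were thus at or under 3 counts, and none came near a control library. Against 3 counts in the knockdown library where these are worth most, 0.177 CPM, RAB25 was at least 726.9-fold lower in knockdown, and at least 840.8-fold lower with hairpin #1 taken alone. This bound sets the control mean against 3 counts, the highest count seen in a knockdown library, so it describes the observed counts and allows for no counting error. Amplified reads without molecular identifiers are also not independent molecules. In control cells its level per length, 75.5 ± 9.95 RPKM (SD, n = 3), was above that of 97% of tested genes. No other gene of the table overlapped its position.

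RAB11A (ENSG00000103769, hg38 chr15:65726054-65891991, plus strand), the widely expressed member of the subfamily, differed least. It was at 132.2, 140.7 and 138.5 CPM in control, 117.6, 107.7 and 116.2 CPM with hairpin #1 and 108.3, 98.4 and 101.6 CPM with hairpin #3. All 6 knockdown libraries were below all 3 control libraries, by little. The pooled log2 fold change was -0.34 (SE 0.0816), below the 2-fold threshold of a call. Reads carried no strand, and the gene overlaps DENND4A on the opposite strand, which had 123 to 187 counts per library beside 1794 to 2898 for RAB11A.

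With RAB25 near 0, the RNA of the RAB11 subfamily was smaller and differently composed. RAB25, RAB11A and the close paralog RAB11B summed to 121.8 ± 13.7 RPKM in control, 44.9 ± 2.91 RPKM with hairpin #1 and 39.9 ± 3.26 RPKM with hairpin #3 (SD, n = 3 each). RAB25 made up 61.9% ± 1.24 of that sum in control and 0.12% ± 0.106 and 0.111% ± 0.12 with the hairpins. RAB11A made up 19.9% in control and 44.7% and 45.6% with the hairpins, and RAB11B 18.1%, 55.2% and 54.3%. These shares rest on annotated lengths of 1699 bases for RAB25 and 5682 bases for RAB11A. Without division by length RAB11A averaged 137.1 CPM in control, beside 128.3 CPM for RAB25. RAB11B itself was at 54.7 ± 7.82 CPM in control, 61.4 ± 7.56 CPM with hairpin #1 and 53.9 ± 9.90 CPM with hairpin #3. Its pooled log2 difference of 0.08 (SE 0.142) had an adjusted p-value of 0.723 in edgeR's quasi-likelihood test, and its sign turned when control library A was left out.

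**Figure D2:**
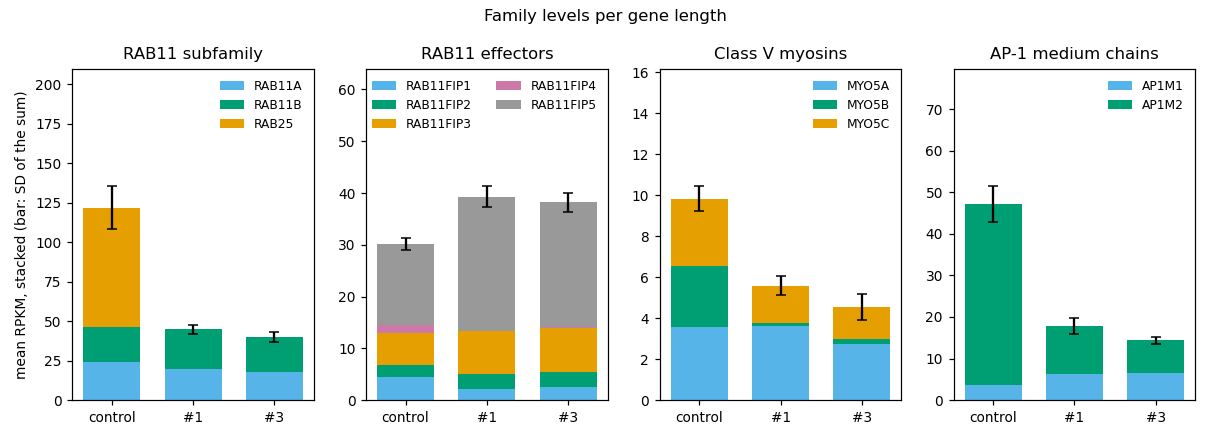
Mean RPKM stacked by gene for the RAB11 subfamily, the RAB11FIP effectors, the class V myosins and the AP-1 medium chains in control, hairpin #1 and hairpin #3 libraries (n = 3 each), on linear axes that start at 0, with bars for the SD of the sum. The RAB11 sum is 121.8 RPKM in control and 44.9 and 39.9 RPKM with the hairpins, and the RAB25 segment is too small to see in both knockdown groups.

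The effectors RAB11FIP1 and RAB11FIP4 were both lower, to very different extents. RAB11FIP1 (ENSG00000156675, hg38 chr8:37858618-37899467, minus strand), a class I effector also known as Rab coupling protein, was at 47.2, 40.0 and 42.5 CPM in control, 24.8, 21.0 and 14.5 CPM with hairpin #1 and 30.5, 19.8 and 20.5 CPM with hairpin #3. The highest knockdown library was below the lowest control library, and within each hairpin the 3 libraries spread more widely (25.9% and 25.3% of the mean) than in control (8.45%). The pooled log2 fold change of -0.99 (SE 0.177) lay just under the 2-fold threshold, and that with hairpin #1 alone, -1.11 (SE 0.193), just over it. Tested genes of this chromosome had a pooled median of -0.28.

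RAB11FIP4 (ENSG00000131242, hg38 chr17:31391624-31538217, plus strand), a class II effector, was the least abundant of the 10 genes per length in control, at 1.37 ± 0.219 RPKM, above 30.7% of tested genes. Its counts were 389, 391 and 522 in control, 11, 14 and 10 with hairpin #1, and 7, 9 and 4 with hairpin #3. Groups were far apart, with 21.1 ± 3.36 CPM in control, 0.552 ± 0.145 CPM with hairpin #1 and 0.363 ± 0.160 CPM with hairpin #3 (SD, n = 3). The knockdown means were 2.62% and 1.72% of control, and the pooled log2 fold change was -5.52 (SE 0.238).

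Other effectors of the family were not lower. RAB11FIP5, a class I effector, was at 93.1 ± 5.12 CPM in control, 153.7 ± 10.9 CPM with hairpin #1 and 143.3 ± 5.53 CPM with hairpin #3, a pooled log2 difference of 0.67 (SE 0.0851, edgeR adjusted p = 7.50e-05) that stayed under the 2-fold threshold. RAB11FIP3, the class II paralog of RAB11FIP4, had a difference of 0.44 (SE 0.0884, adjusted p = 0.00229), and RAB11FIP2 one of 0.34 (SE 0.130, adjusted p = 0.0639). The 5 effectors together summed to 30.1 ± 1.13 RPKM in control, 39.3 ± 2 RPKM with hairpin #1 and 38.2 ± 1.79 RPKM with hairpin #3. RAB11FIP1 and RAB11FIP4 made up 14.9% and 4.55% of that sum in control, 5.34% and 0.0922% with hairpin #1 and 6.4% and 0.062% with hairpin #3.

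Among the motors, MYO5B was nearly lost and MYO5C about halved. MYO5B (ENSG00000167306, hg38 chr18:49822813-50195093, minus strand), the myosin that binds RAB11 and RAB25 and is mutated in microvillus inclusion disease, held 674, 592 and 651 counts in control, 40, 9 and 48 with hairpin #1 and 51, 45 and 36 with hairpin #3. The levels were 31.1 ± 1.59 CPM in control, 1.46 ± 0.874 CPM with hairpin #1 and 2.38 ± 0.677 CPM with hairpin #3. No knockdown library approached control, and hairpin #1 library B, at 0.458 CPM, stood below the other 5. The pooled log2 fold change was -4.02 (SE 0.311), and without that library -3.82.

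MYO5C (ENSG00000128833, hg38 chr15:52192322-52295798, minus strand), a class V myosin of glandular epithelia, was at 35.3, 31.3 and 32.4 CPM in control, 20.5, 18.9 and 15.6 CPM with hairpin #1 and 17.95, 15.4 and 14.0 CPM with hairpin #3. Groups did not overlap between control and knockdown. The means with the hairpins were 55.6% and 47.9% of control, and the pooled log2 fold change was -0.95 (SE 0.123). MYO5A, the most widely expressed class V myosin, was at 46.6 ± 4.08, 47.1 ± 2.95 and 35.9 ± 4.90 CPM in the same order, with a pooled log2 difference of -0.17 (SE 0.140, edgeR adjusted p = 0.406). Of the summed class V RNA per length, MYO5B made up 30.2% in control and 2.52% and 4.9% with the hairpins, MYO5C 33.4%, 32.6% and 34.5%, and MYO5A 36.4%, 64.9% and 60.6%. The sum was 9.83 ± 0.614 RPKM in control, 5.59 ± 0.457 RPKM with hairpin #1 and 4.56 ± 0.635 RPKM with hairpin #3.

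SYTL1 and SYTL2, synaptotagmin-like proteins that tether RAB27-bearing vesicles to the plasma membrane, were the only members whose knockdown and control libraries overlapped. SYTL1 (ENSG00000142765, hg38 chr1:27342020-27353937, plus strand) was at 30.1, 45.8 and 50.9 CPM in control, 11.4, 18.1 and 20.4 CPM with hairpin #1 and 17.95, 25.4 and 31.9 CPM with hairpin #3. The hairpin #1 libraries were below all control libraries, hairpin #3 library C was above control library A, and the A library was the lowest in each group. The pooled log2 fold change was -1.02 (SE 0.257), and SYTL1 was no longer called when any 1 of control library B, control library C, hairpin #1 library A, hairpin #1 library B or hairpin #3 library A was left out.

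SYTL2 (ENSG00000137501, hg38 chr11:85694224-85811159, minus strand) was at 81.6, 57.6 and 44.9 CPM in control, 46.2, 34.9 and 27.5 CPM with hairpin #1 and 49.5, 42.9 and 43.8 CPM with hairpin #3. Library A was the highest in each group, and the A libraries of both hairpins were above control library C. The pooled log2 fold change was -0.59 (SE 0.198), under the 2-fold threshold. Neither of their partner GTPases was called. RAB27A had a pooled log2 difference of 0.32 (SE 0.126, edgeR adjusted p = 0.0740) and RAB27B one of 0.03 (SE 0.157, adjusted p = 0.897), whose sign turned without control library C or hairpin #3 library B. The paralog SYTL4 had one of -0.36 (SE 0.176, adjusted p = 0.140).

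AP1M2 (ENSG00000129354, hg38 chr19:10572671-10587315, minus strand) was at 87.4, 96.7 and 105.4 CPM in control, 25.1, 22.4 and 28.5 CPM with hairpin #1 and 17.1, 16.0 and 19.0 CPM with hairpin #3. The 3 groups did not overlap, with control highest and hairpin #3 lowest. The means were 26.3% and 18% of control, and the pooled log2 fold change was -2.17 (SE 0.162). AP1M1, the medium chain of the ubiquitous AP-1A adaptor, was higher, at 51.1 ± 4.04 CPM in control, 92.1 ± 7.55 CPM with hairpin #1 and 93.7 ± 5.80 CPM with hairpin #3, a pooled log2 difference of 0.86 (SE 0.090, edgeR adjusted p = 1.63e-05) under the 2-fold threshold. Per length, AP1M2 made up 92.4% ± 0.332 of both medium chains in control, 64.1% ± 0.879 with hairpin #1 and 54.5% ± 2.76 with hairpin #3. Their sum was 47.1 ± 4.32, 17.9 ± 1.90 and 14.4 ± 0.769 RPKM in that order. These shares and sums depend on the annotated gene lengths. Without division by length AP1M2 averaged 96.5, 25.4 and 17.35 CPM in that order, below AP1M1 with both hairpins.

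MAL2 (ENSG00000147676, hg38 chr8:119165034-119245673, plus strand) was the most abundant of the 10 genes in control, at 113.8 ± 23.3 RPKM, above 98.2% of tested genes. Its counts were 9002, 8777 and 6237 in control, 23, 6 and 8 with hairpin #1, and 13, 29 and 23 with hairpin #3. The highest knockdown library, at 1.59 CPM, was far below the lowest control library, at 298.1 CPM. The knockdown means were 0.147% and 0.292% of control, the ratio of the control to the knockdown mean was 456, and the pooled log2 fold change was -8.84 (SE 0.298). The related proteolipid MAL, which acts in direct apical delivery, was at 11.3 ± 2.21 CPM in control, 0.437 ± 0.190 CPM with hairpin #1 and 0.695 ± 0.284 CPM with hairpin #3, a fall by 4.32 on the log2 scale (SE 0.283, edgeR adjusted p = 3.11e-07).

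In control cells the order of the 10 genes by RPKM was MAL2, RAB25, AP1M2, RAB11A, SYTL1, SYTL2, RAB11FIP1, MYO5C, MYO5B and RAB11FIP4. The adjacent pairs SYTL1 (7.58 ± 1.94 RPKM) and SYTL2 (5.45 ± 1.65 RPKM), SYTL2 and RAB11FIP1 (4.501 ± 0.380 RPKM), and MYO5C (3.28 ± 0.208 RPKM) and MYO5B (2.96 ± 0.151 RPKM) differed by less than the sum of their SDs. After knockdown the order changed: with hairpin #1 RAB11A was highest at 20.0 ± 0.938 RPKM and AP1M2 next at 11.5 ± 1.37 RPKM, while MAL2 stood at 0.167 ± 0.126 RPKM. With hairpin #3 the same 2 genes led, at 18.1 ± 0.890 and 7.84 ± 0.683 RPKM.

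Hairpin #3 against hairpin #1 is a contrast that the rule for choosing the genes did not use, so it was tested, although earlier results of these data were known. No member was called in it, beside 3.93% of all tested genes. AP1M2 was lower with hairpin #3 by a log2 difference of -0.55 (SE 0.120, edgeR adjusted p = 0.00994, n = 3 libraries each), with all 3 hairpin #3 libraries below all 3 hairpin #1 libraries, but stayed under the 2-fold threshold. Over the alternatives its adjusted p-value ran from 0.000424 to 0.0596, the highest being without hairpin #3 library B. For the other 8 members with more than 3 counts the adjusted p-value was 0.152 or above. Over the alternatives it went down to 0.000197 for SYTL1 and 0.0261 for SYTL2, both with a replicate block. For MAL2 it went down to 0.0119 with no filter on low counts, where that of SYTL1 was 0.000541. It stayed above 0.05 in all 16 alternatives for RAB11A, RAB11FIP1, RAB11FIP4, MYO5B and MYO5C. Of the 9 members compared, 2 had an unadjusted p-value under 0.05 in edgeR, and the Wald test of DESeq2 called 0.

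Among the members MAL2 had the largest difference between the hairpins, 0.98 higher with hairpin #3 (SE 0.459, edgeR adjusted p = 0.206), and without hairpin #1 library A, which had 23 counts of MAL2, the difference was 1.79 with an adjusted p-value of 0.027, past both thresholds. MYO5B was 0.65 higher (SE 0.364, adjusted p = 0.302), SYTL1 0.60 higher (SE 0.248, adjusted p = 0.152) and SYTL2 0.33 higher (SE 0.207, adjusted p = 0.373). RAB11FIP4 had a difference of -0.62 (SE 0.402, adjusted p = 0.385) at 4 to 14 counts per library. RAB11FIP1 had one of 0.23 (SE 0.195), MYO5C one of -0.22 (SE 0.133) and RAB11A one of -0.15 (SE 0.086), with adjusted p-values of 0.524, 0.354 and 0.325. RAB25 is given no difference, since both hairpin groups were at or under 3 counts. The median over the other 9 members was 0.232, beside -0.0087 over all tested genes.

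**Figure D3:**
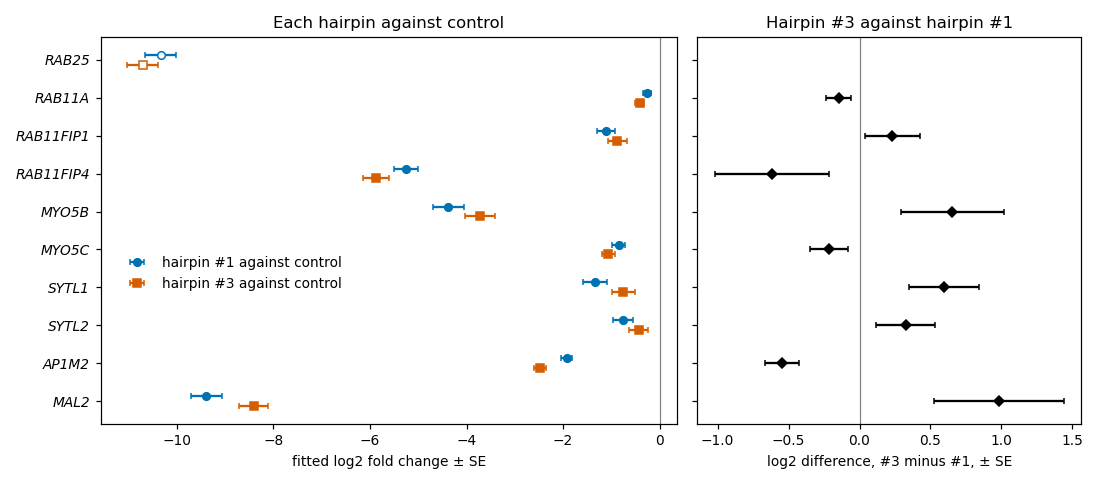
Left, fitted log2 fold change with SE of each gene for hairpin #1 (circles) and hairpin #3 (squares) against the same 3 control libraries, with open symbols for RAB25, whose fitted value depends on the prior count and is not a bound. Right, the log2 difference of hairpin #3 minus hairpin #1 with SE for the 9 genes above 3 counts, from -0.62 for RAB11FIP4 to 0.98 for MAL2.

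Around each gene the 5 nearest tested genes on either side were taken, 100 neighbour places in all, of which 4 were called lower and 5 higher in the pooled comparison, beside 7.4% of all tested genes called lower and 14.7% called in either direction. Around RAB25, over 293.2 kb, none of the 10 neighbours was called, their median log2 fold change was 0.17 and their range -0.98 to 0.88. LAMTOR2, the tested gene directly before it, had a log2 difference of 0.01 (SE 0.114), and MEX3A, directly after it, one of 0.88 (SE 0.0953). Around RAB11A, MYO5B and MYO5C no neighbour was called by edgeR either, with 2, 2 and 3 of 10 at an unadjusted p-value under 0.05, beside 5 of 10 around RAB25, and the Wald test of DESeq2 called 0 around all 4 genes.

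Around AP1M2, the adjacent SLC44A2, a choline transporter-like gene, fell by 2.02 on the log2 scale (SE 0.140, edgeR adjusted p = 5.22e-07), from a mean of 603 CPM to 149 CPM, and the other 9 neighbours were not called. Around MAL2, 1 neighbour was called lower and 3 higher over a span of 3507 kb. The lower one, AARD, averaged 1.53 CPM in control and had no count in any knockdown library, which makes it at least 8.652-fold lower, while EXT1, TNFRSF11B and NOV were called higher. Around SYTL1 and SYTL2, FAM46B (log2 difference -1.08) and CCDC89 (-1.06) were called lower, and around RAB11FIP1 and RAB11FIP4, ADGRA2 (3.15) and EVI2A (3.18) were called higher. These neighbours were named after their values were seen.

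**Figure D4:**
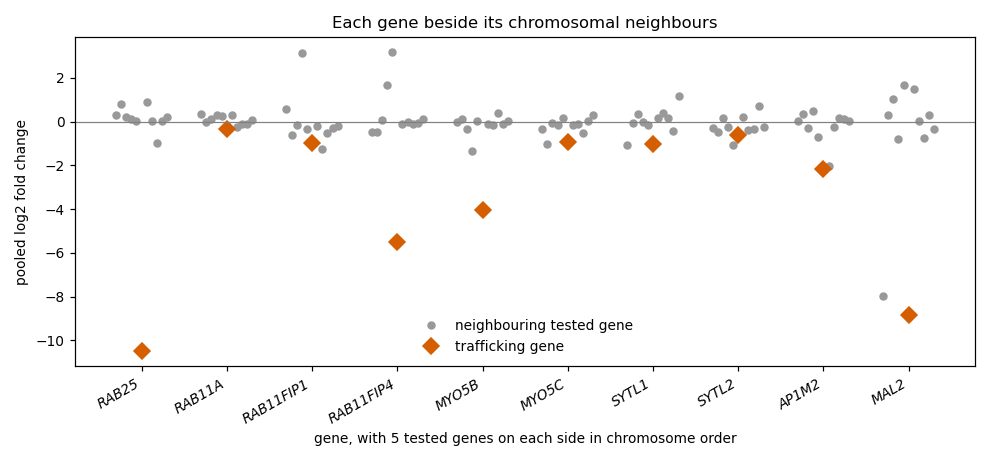
Pooled log2 fold change of each of the 10 genes (orange diamonds) and of its 5 tested neighbours on either side in chromosome order (grey points). RAB25 (fitted value, not a bound), RAB11FIP4 and MYO5B lie far below all of their neighbours, AP1M2 lies beside SLC44A2 at -2.02, and MAL2 lies near AARD, whose fitted value rests on no knockdown count.

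The genes whose pattern over the 9 libraries was most like that of RAB25, by Pearson correlation of log2(CPM + 1), were FAM83F (r = 0.99974), VGLL1 (0.99959), MIR205HG (0.99955), DAPP1 (0.99952) and SYK (0.99949). FAM83F and MIR205HG had at most 1 count in any knockdown library, and the other 3 had 0. Their control means ran from 8.24 CPM for FAM83F to 125.9 CPM for VGLL1. Among the members, RAB11FIP4 (r = 0.9977) and MAL2 (0.994) were over 0.99, as were 182 or 1.14% of the tested genes, and AP1M2 (0.9735), MYO5B (0.9731) and MYO5C (0.9409) came next. RAB11A (0.8978), RAB11FIP1 (0.8646), SYTL1 (0.7765) and SYTL2 (0.6351) were less alike. All these correlations share the same division into 3 control and 6 knockdown libraries, so they describe mainly that division and carry no p-value.

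Beyond the 10 genes, 103 other trafficking genes in 10 lists were counted, of which 99 were tested. In the pooled comparison 16 were called lower (16.2%, beside 7.4% of all tested genes) and 3 higher, and 80 were not called, with a median log2 fold change of -0.09. The lists were chosen with earlier results of these data known, so nothing is read from their counts. The 4 that were not tested for low counts were MYO1A, MYRIP, PIGR and CFTR. None of 9 exocyst subunits, which tether vesicles at the plasma membrane, and none of 6 recycling or apical cargo genes was called by edgeR or by DESeq2, with medians of -0.03 and -0.21. At an unadjusted p-value under 0.05 in edgeR the numbers were 0 of 9 and 4 of 6. The exocyst subunit EXOC3 had log2 differences of opposite sign with the hairpins, 0.44 with hairpin #1 (adjusted p = 0.00475) and -0.40 with hairpin #3 (adjusted p = 0.00979), both under the 2-fold threshold, and EXOC6 had -0.46 with hairpin #3 (adjusted p = 0.0151).

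Of 9 tested MAL and MARVEL proteins 5 were called lower, MAL, MALL, CMTM4, CMTM7 and CMTM8, with a list median of -1.12. MALL had 8.67 to 11.1 CPM in control, 0 counts with hairpin #1 and at most 1 count with hairpin #3, which makes it at least 56.84-fold lower. Of 7 vesicle myosins MYO6, MYO1D and MYO1E were called lower and MYO7B higher. MYO1D was at 60.4 ± 4.68 CPM in control, 4.32 ± 1.01 CPM with hairpin #1 and 15.9 ± 1.44 CPM with hairpin #3, and MYO7B, a brush border myosin, at 2.24 ± 1.39, 68.8 ± 25.6 and 52.9 ± 21.2 CPM. Of 12 other polarized-transport Rabs RAB17, an epithelial Rab of the recycling endosome, and RAB19 were called lower and RAB8B higher, RAB17 falling by 2.96 on the log2 scale (SE 0.155, edgeR adjusted p = 4.48e-08).

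In the remaining lists 1 or 2 genes were called lower. They were SH3TC2, a RAB11 effector (log2 difference -1.89), EXPH5 (-2.10) and SYTL3 (-1.05) among 9 RAB27 genes and effectors, AP1S3, a small chain of AP-1 (-2.77), VAMP8, an endosomal SNARE (-2.04), and RAB4B (-1.39), all with adjusted p-values of 0.0141 or lower in edgeR's test. RAB4B rests on few reads, 18 to 28 counts per control library and 4 to 12 per knockdown library. The SNARE list also held STX2, called higher at 1.11. EXOC3, EXOC6 and names beyond the 2 largest differences of a list were added after their values were seen. Without the 2-fold threshold 45 of the 99 genes passed, 31 lower and 14 higher, beside 5269 of all 15975 tested genes. With hairpin #1 alone 15 of the 99 were called lower and 3 higher, beside 8.55% of all tested genes called lower. With hairpin #3 alone the numbers were 18 and 2, beside 7.83%. Nothing is read from these counts either, for the same choice of lists.

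**Figure D5:**
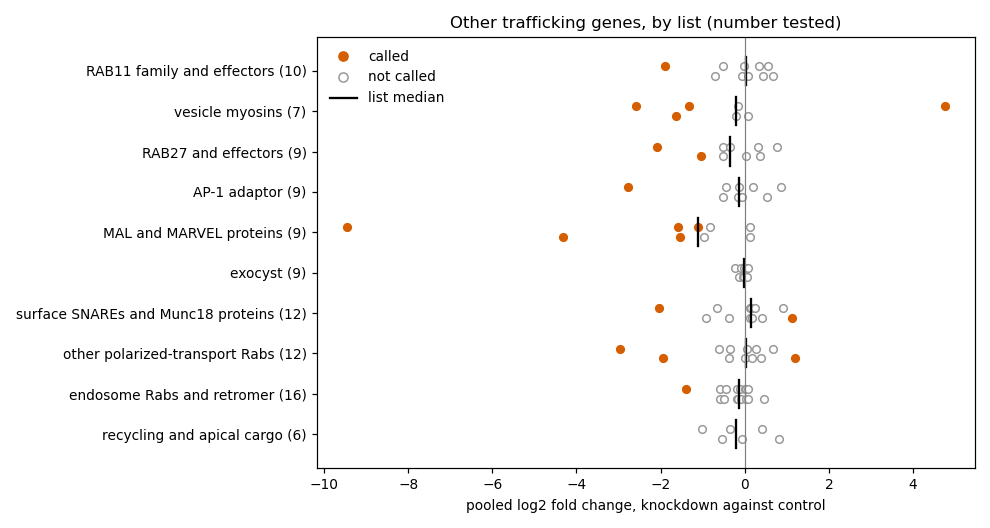
Pooled log2 fold change of the 99 other tested trafficking genes by list, with the number tested in parentheses, filled orange points for called genes, open grey points for genes not called and a black line at each list median. The exocyst points, which pool both hairpins, sit close to 0, and the MAL and MARVEL list has its median at -1.12.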

How the data were processed

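Poly(A) RNA of 9 OVCA433 libraries was sequenced without strand information. The raw counts per gene were deposited by the authors with no normalization. The submitters' processing notes name HISAT2 2.0.5, featureCounts 1.5.0-p3 and the hg38 genome. The study gives 3 biological replicates per condition, and p-values measure the spread between these libraries. No libraries were identical, and between any pair of a group the counts differed by more than sampling noise.

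Genes were filtered with filterByExpr of edgeR 4.0.16 in R 4.3.3 (minimum count 10, minimum total count 15), which kept 15975 genes holding 99.889% of counts, and scaled with TMM factors. Differences were tested with glmQLFit and glmQLFTest, Benjamini-Hochberg adjusted over all tested genes. Calls required both an adjusted p-value below 0.05 and a log2 fold change of 1 or more in either direction. Both hairpins formed 1 arm in the pooled comparison, and a 3-group model gave each hairpin against control and hairpin #3 minus hairpin #1. The hairpin comparisons share their 3 control libraries. Standard errors are the absolute log2 fold change over the square root of F. The test was also run on simulated counts with a fixed spread between libraries, the same effect for both hairpins and no replicate effect. That run does not measure its error rates on these data.

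The 10 members and all gene lists were chosen with earlier results of these data known. Named genes were the members, MPZL3, 10 paralogs, at most 2 genes per list with the largest absolute difference among those called pooled and with each hairpin, and the 5 genes most correlated with RAB25. The level of 1 leukocyte marker is not reported here. A gene at 3 counts or fewer in every knockdown library is given a bound on its fold, the control mean over the CPM of 3 counts, with no allowance for counting error. Promoters were taken from RefSeq on GRCh38.p14 and matched by symbol, 6 of 10. The alternatives changed the filter (none, or a mean CPM of 1 or more), the scaling (size factors of DESeq2 1.42.0, or totals), the test (its Wald test), the model (a replicate block, the pooled contrast from 3 groups, or only the libraries compared), the libraries (each left out once) and the fold threshold (none).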

Additional observations from a re-analysis of the deposited data

Results flagged for a closer look

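Of the 10 members and the 99 other trafficking genes tested, 12 differed between hairpin #3 and hairpin #1 at an adjusted p-value under 0.05. The test was edgeR's quasi-likelihood test (n = 3 libraries each), and 1857 of all 15975 tested genes passed the same threshold. The count is therefore not read as a result about trafficking genes. For these 12 the fitted difference from control was not the same for both hairpins in the main setting, and not all of them passed in every alternative. The 12 were 1 member and 11 other genes. Of all 99 other trafficking genes 2 were also past the 2-fold threshold (2.02%), and of the 10 members 0, beside 3.93% of all tested genes. The member among the 12 was AP1M2, with a log2 difference of -0.55 (adjusted p = 0.00994). The 2 past the threshold were MYO1D, 1.88 higher with hairpin #3 (adjusted p = 9.68e-06), and EXPH5, 1.03 higher (adjusted p = 0.0126). EXOC3, an exocyst subunit, had a difference of -0.85 (adjusted p = 0.000217), with opposite signs against control, 0.44 with hairpin #1 (adjusted p = 0.00475) and -0.40 with hairpin #3 (adjusted p = 0.00979). STXBP2 had a difference of -0.85 (adjusted p = 0.00811) and RAB8B one of -0.45 (adjusted p = 0.0385). EXOC6 had one of -0.43 (adjusted p = 0.0483), MYO5A one of -0.39 (adjusted p = 0.0444) and MYO6 one of -0.35 (adjusted p = 0.0189). VAMP8 was 0.63 higher with hairpin #3 (adjusted p = 0.0117), SNX5 0.49 higher (adjusted p = 0.0115) and RAB22A 0.46 higher (adjusted p = 0.00377). EXOC3, EXOC6, STXBP2, RAB8B, MYO6, SNX5 and RAB22A were named after their values were seen.

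Over 16 alternatives the adjusted p-values of MYO1D, EXOC3, RAB22A and STXBP2 stayed under 0.05, the highest being 0.000235, 0.00279, 0.0232 and 0.0384. EXOC6 was at or above 0.05 in 11 of the 16 (up to 0.190), MYO5A in 9 (up to 0.192, without hairpin #3 library C), RAB8B in 6 (up to 0.164) and MYO6 in 3 (up to 0.0980). AP1M2, VAMP8 and SNX5 were at or above it in 1 each, at 0.0596 without hairpin #3 library B, 0.0526 without hairpin #3 library C and 0.0518 without hairpin #1 library B. EXPH5 lost its call without hairpin #1 library B (0.92, adjusted p = 0.0666), without hairpin #1 library C (0.91, adjusted p = 0.0608) and without hairpin #3 library A (0.77, adjusted p = 0.0421). STXBP2 passed the 2-fold threshold without hairpin #1 library A (-1.02).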

How the results depend on the processing

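The threshold on fold decided most counts. Without it 5269 genes passed in the pooled comparison, 6032 with hairpin #1, 5536 with hairpin #3 and 1857 between the hairpins, and 45 other trafficking genes passed, 14 higher and 31 lower. Every other alternative kept these counts within 1.5 times. With 1 library left out they ran from 2096 to 2490, 2462 to 2780, 2333 to 2590 and 515 to 711, and 18 to 21 other trafficking genes were called, 15 to 18 of them lower and 3 higher. All 10 members were lower than control in every alternative. All 10 passed in the pooled comparison without the fold threshold, beside 5269 of all 15975 tested genes. Under the other alternatives 5 to 7 members were called, since RAB11FIP1, MYO5C and SYTL1 lie near the 2-fold threshold. Nothing is read from these counts of members or of other trafficking genes. The members were chosen with this contrast known, and the lists with earlier results of these data known. Between the hairpins MAL2 passed both thresholds without hairpin #1 replicate A (1.79). With 1 library left out, pooled differences near 0 turned sign for RAB11B (-0.029 to 0.173) and RAB27B (-0.041 to 0.13).

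The replicate letters did not meet the rule used for pairing, and the main model leaves them out. Of 9 correlations between same-letter libraries of different groups 7 were over 0.1, and 7 of 9 libraries correlated best with their own letter. Same-letter correlations ran from 0.057 to 0.523, highest between A libraries (0.455 to 0.523), beside -0.499 to 0.213 between different letters. This is a hint of a shared letter effect from the data and not from the design. With the letter as a replicate block 2306 genes were called pooled, 2675 with hairpin #1, 2515 with hairpin #3 and 754 between the hairpins, and the call of none of the 99 other trafficking genes differed. Under it 7 members were called pooled, RAB11FIP1 being added, and the hairpin difference had an adjusted p-value of 0.000197 for SYTL1 and 0.0261 for SYTL2, with sizes of 0.60 and 0.36. Without the block these adjusted p-values were 0.152 and 0.373 in the same edgeR test. Depth limits RAB25, MALL and AARD to bounds, and 4 to 51 counts per knockdown library lie behind the folds of RAB11FIP4, MYO5B and MAL2. RAB4B rests on 4 to 12 and RAB19 on 2 to 14 counts per knockdown library, beside 18 to 28 and 34 to 42 per control library. The filter at a mean CPM of 1 left both of them out.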
